A study of Mus musculus with 9 samples.

Results

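The endocannabinoid genes described here are 10 listed genes of receptors and enzymes, matched by symbol to the gene identifiers of the GRCm38 annotation, out of 55536 genes in the tables. They are the receptor genes Cnr1, Cnr2 and Gpr55, the synthesis genes Dagla, Daglb and Napepld, and the breakdown genes Mgll, Abhd6, Abhd12 and Faah. The samples are 9 RNA libraries, 3 for each of 3 sorted subsets of islet cells, and all cells came from 12-week-old C57B/L6 mice. All islets were picked by hand, kept overnight in culture and dispersed, and cells were sorted by surface staining. The beta-enriched subset was CD24low CD71+, the alpha-enriched subset CD24low CD71- and the delta-enriched subset CD24high. These gates enrich for a cell type and do not purify it, and the labels do not say whether libraries came from separate mice, so p-values measure the spread between these libraries, which may be technical.

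Endocannabinoids are lipids made on demand from membrane phospholipids. Diacylglycerol lipases release 2-arachidonoylglycerol and the phospholipase D encoded by Napepld releases anandamide and related N-acylethanolamines. Both ligands act on the cannabinoid receptors, which couple to inhibitory G proteins, and serine hydrolases end the signal. In islets the same monoacylglycerol pool also has a role inside beta cells, where the hydrolase encoded by Abhd6 is known from mouse work to restrain insulin secretion.

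Among the tested members, Cnr1 differed most between the alpha-enriched subset and each of the others, and Mgll was nearly absent from all subsets. Cnr1 was 29.5-fold higher in the beta-enriched than in the alpha-enriched subset, and its delta-enriched level was 74.2% of the beta-enriched one. Abhd6 and both diacylglycerol lipase genes were higher in the beta-enriched than in the alpha-enriched subset. Between the beta- and delta-enriched subsets only Abhd6 passed the test, higher in the beta-enriched one. Between the alpha- and delta-enriched subsets, Napepld was higher and Abhd12 and Faah were lower in the alpha-enriched one. Of the calls in this paragraph, only those of Cnr1 held under every alternative setting described below. Cnr2, Gpr55 and Mgll had 16, 3 and 4 counts over all 9 libraries.

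The start regions of 4 members are shown because these genes had unlike patterns over the subsets: Cnr1 low in the alpha-enriched subset, Abhd6 higher in the beta-enriched than in both other subsets, Napepld highest in the alpha-enriched subset and Mgll nearly absent. The RefSeq table of GRCm38.p6 held 13 windows for 8 of the 10 members. Each window has 300 bases, 250 before and 50 after a start of transcription, and is written 5′ to 3′ on the strand of the gene. Capitals mark the letters TGCTGA, a Maf half-site. The windows lie at chr4:33924394-33924693 on the plus strand for Cnr1, chr14:8002638-8002937 on the plus strand for Abhd6, chr5:21701573-21701872 on the minus strand for Napepld and chr6:88724162-88724461 on the plus strand for Mgll.
Cnr1: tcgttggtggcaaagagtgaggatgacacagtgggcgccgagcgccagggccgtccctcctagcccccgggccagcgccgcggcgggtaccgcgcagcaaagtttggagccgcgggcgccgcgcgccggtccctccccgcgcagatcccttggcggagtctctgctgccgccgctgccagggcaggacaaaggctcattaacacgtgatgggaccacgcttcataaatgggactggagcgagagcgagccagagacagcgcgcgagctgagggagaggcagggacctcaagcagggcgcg
Abhd6: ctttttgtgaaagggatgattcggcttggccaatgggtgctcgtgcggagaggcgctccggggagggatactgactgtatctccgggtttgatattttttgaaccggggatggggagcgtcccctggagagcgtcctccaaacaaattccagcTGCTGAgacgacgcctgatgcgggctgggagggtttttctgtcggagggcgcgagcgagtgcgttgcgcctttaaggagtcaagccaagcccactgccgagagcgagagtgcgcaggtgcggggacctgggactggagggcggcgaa
Napepld: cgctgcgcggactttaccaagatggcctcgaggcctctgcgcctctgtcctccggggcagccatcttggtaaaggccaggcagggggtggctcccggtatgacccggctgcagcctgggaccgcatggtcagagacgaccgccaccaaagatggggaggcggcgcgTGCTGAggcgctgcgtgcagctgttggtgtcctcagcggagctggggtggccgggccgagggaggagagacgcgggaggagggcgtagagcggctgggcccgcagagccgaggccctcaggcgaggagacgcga
Mgll: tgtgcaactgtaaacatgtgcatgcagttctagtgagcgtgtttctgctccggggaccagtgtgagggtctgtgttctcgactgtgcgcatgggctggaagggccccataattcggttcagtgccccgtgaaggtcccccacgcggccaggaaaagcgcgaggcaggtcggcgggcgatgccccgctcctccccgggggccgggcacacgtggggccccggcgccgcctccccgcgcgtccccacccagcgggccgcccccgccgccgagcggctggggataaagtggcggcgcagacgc

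All 4 windows were rich in CpG dinucleotides, with 33 for Cnr1, 24 for Abhd6, 28 for Napepld and 32 for Mgll, where the median was 7 and the upper quartile 20 over 32544 distinct windows of the table. Mgll, nearly absent, and Napepld, detected in every library, had windows with a GC content of 70.0% and 70.3%. Letters were searched on both strands, and none of the motifs holds another. TGCTGA occurred in 19.5% of all windows and in 5 of the 13 windows of the members, which belong to Cnr1, Abhd6, Faah and Napepld. Abhd6 has a pair of overlapping windows that hold the same site. TGCTGA began 97 bases before the start in the Abhd6 window and 84 bases before it in the Napepld window. For Cnr1 it lay only in a downstream window that is not shown. These starts are those of the RefSeq table. The Napepld window lies wholly upstream of the gene coordinates given below, which end at 21701396. CAGATG, an E-box bound by the islet factor neuroD1, occurred in 17.1% of all windows and in 3 of the 13, 1 each of Cnr2, Gpr55 and Faah. The TATA box letters TATAAA occurred in 13.6% of all windows and in 0 of the 13. The homeobox core TAATTA was in 5.29% of all windows and the cAMP response element TGACGTCA in 1.80%, and each was in 0 of the 13.

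Libraries held 5663141 to 9529920 expected counts. Each subset was highest for the hormone gene of its label: Ins2 averaged 25950 CPM (counts scaled to library size) in beta, 2325 in alpha and 191.3 in delta (the enriched subsets, here and below), Gcg 393, 89390 and 4380, and Sst 1.57, 37.8 and 17220. The 4 markers of pancreatic polypeptide cells summed to between 111.6 and 182.2 TPM in beta libraries, between 4908 and 6213 in alpha libraries and between 4719 and 9409 in delta libraries. This sum does not give the share of those cells, since it does not tell which cells the RNA came from. Their part in the members' differences of beta from alpha and delta was not tested. A pair of libraries stood apart. Ribosomal and 7S RNA genes took 42.1% of the counts in beta replicate 2, against 6.97% to 10.9% elsewhere, and the 18 acinar marker genes summed to 28993 counts in delta replicate 3, against 233 to 5853 elsewhere. Of the 11 immune markers, Ptprc and Cd3e, which define leukocytes and T cells, had 0 counts in all 9 libraries. Cd68 had 42, 23 and 27 counts over the beta-, alpha- and delta-enriched libraries, Csf1r 3.18, 10.3 and 14, and Cd79a 9, 6 and 5. The 11 markers summed to 35.1 to 59.1 counts per beta-enriched, 50 to 53 per alpha-enriched and 50 to 96 per delta-enriched library. Levels below are CPM with TMM factors (scaled CPM), as mean ± SD over 3 libraries unless single libraries are given. Levels of different genes are compared only in TPM, which divides by transcript length. In such bulk libraries, fewer cells of a type and less RNA per cell cannot be told apart.

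Of the 10 members, 7 passed the filter on low counts and were tested. Cnr2, Gpr55 and Mgll did not pass it. In the beta-enriched against the alpha-enriched subset 4 of the 7 were higher and 0 lower at an adjusted p under 0.05, against 26.6% of all 15896 tested genes called in either direction, 14.8% higher and 11.9% lower. In the beta-enriched against the delta-enriched subset 1 of the 7 was higher and 0 were lower, where 30.6% of all genes were called, 15.4% higher and 15.3% lower. In the alpha-enriched against the delta-enriched subset 1 was higher and 3 were lower, where 24.3% of all genes were called, 11% higher and 13.3% lower. The median log2 fold change of the 7 tested members was 0.79, 0.38 and -0.41 in these 3 comparisons, beside -0.02, -0.02 and -0.01 over all tested genes. The members were picked with results of these libraries known, so these counts are a description.

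**Figure D1:**
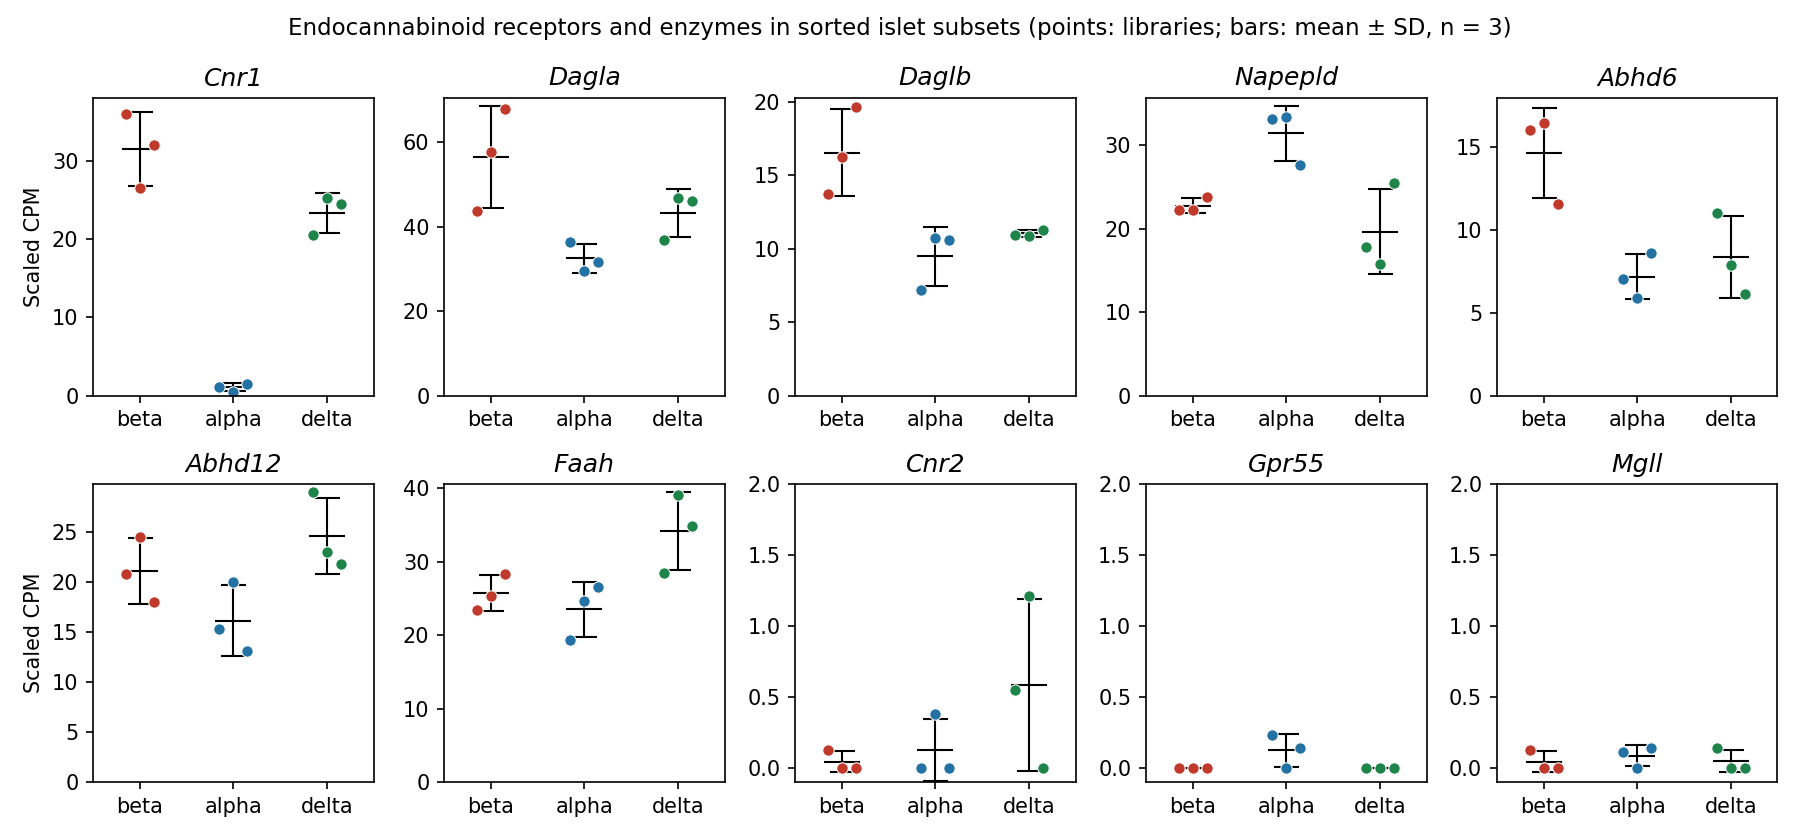
Scaled CPM of the 10 members in each library (points) with the mean ± SD of each subset (bars, n = 3), on a linear axis per gene. Cnr1 lies at 26.6 to 36.0 in beta-enriched, 0.504 to 1.55 in alpha-enriched and 20.5 to 25.3 in delta-enriched libraries, and Cnr2, Gpr55 and Mgll stay below 1.3 in every library.

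Cnr1 (ENSMUSG00000044288, chromosome 4, 33924593 to 33948831, plus strand) encodes the cannabinoid receptor CB1, which couples to inhibitory G proteins. It had 36.0, 26.6 and 32.0 scaled CPM in the beta-enriched libraries, 1.14, 0.504 and 1.55 in the alpha-enriched libraries and 20.5, 25.3 and 24.4 in the delta-enriched libraries. The alpha-enriched libraries were low without exception, and every beta-enriched library lay above every delta-enriched one by a small margin. In counts, the alpha-enriched libraries held 10, 4 and 11.

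Cnr1 was higher in beta than in alpha by 4.88 on the log2 scale (SE 0.29, adjusted p = 9.89e-10) and lower in alpha than in delta (-4.45, SE 0.29, adjusted p = 4.46e-09). Beta and delta, the neighbours at the top of the order, did not differ past the test (0.43, 95% interval -0.01 to 0.88, adjusted p = 0.139), and that interval allows delta to equal beta or to lie well below it. The groups did not overlap in any of the 3 comparisons, as was so for 45.5%, 42.6% and 36.1% of all tested genes in beta against alpha, beta against delta and alpha against delta. The Cnr1 level in the alpha-enriched subset was 3.38% of that in the beta-enriched subset, where Ins1 and Ins2, which mark beta cells, stood at 8.25% and 8.96%. In the delta-enriched subset Cnr1 stood at 74.2% of the beta-enriched level, with Ins1 and Ins2 at 0.885% and 0.737%. The whole list of 12 beta cell markers, some of which other islet cells also express, was less reduced: its sum lay between 359180 and 412870 counts in beta libraries, between 36096 and 57813 in alpha libraries and between 40414 and 54103 in delta libraries. The part of beta cell RNA in the Cnr1 counts of the alpha- and delta-enriched libraries was not tested.

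Deposited TPM gave a less even picture of Cnr1 in the alpha-enriched subset, with 0.58, 0.04 and 0.18 TPM. The first of these libraries had 10 counts but an effective length of 915 bases for Cnr1, against 5257 to 5567 bases in the other 8 libraries, since RSEM weights the 3 annotated transcripts by their estimated share in each library. On log2(TPM + 1) the beta against alpha difference came to 1.63 and the alpha against delta difference to -1.23, both still past the test.

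Cnr2 and Gpr55 were at the edge of detection. Cnr2 (ENSMUSG00000062585, chromosome 4, 135895394 to 135920207, plus strand) encodes CB2, the receptor mainly found on immune cells, and had 1, 0 and 0 counts in beta-enriched, 0, 3 and 0 in alpha-enriched and 4, 8 and 0 in delta-enriched libraries. As a share of all counts this was 0.0429, 0.128 and 0.628 CPM in the beta-, alpha- and delta-enriched subsets, with 95% exact Poisson intervals of 0.00109 to 0.239, 0.0265 to 0.375 and 0.324 to 1.10. The delta-enriched counts came from 2 of its 3 libraries. The 11 immune markers summed to 50, 87 and 96 counts in delta replicates 1, 2 and 3, where Cnr2 had 4, 8 and 0. The part of immune cells in the Cnr2 counts was not tested.

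Gpr55 (ENSMUSG00000049608, chromosome 1, 85938318 to 85961007, minus strand) encodes a receptor for lysophosphatidylinositol. It had 0 counts in every beta- and delta-enriched library, which allows up to 0.129 and 0.157 CPM (3 counts over each subset), and 2, 0 and 1 counts in the alpha-enriched libraries. A difference between subsets was not detectable for Gpr55 at this depth. These floors and intervals cover counting error only. Of the 3 receptor genes Cnr1 had the highest mean TPM in each subset, with 2.93 ± 0.866 in beta-enriched, 0.267 ± 0.280 in alpha-enriched and 1.95 ± 0.457 in delta-enriched libraries. In alpha replicate 2, however, Cnr2 was listed at 0.05 TPM and Cnr1 at 0.04, and the alpha mean of Cnr1 rests mainly on the 0.58 of replicate 1.

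Both diacylglycerol lipase genes, whose enzymes make 2-arachidonoylglycerol, were higher in the beta-enriched than in the alpha-enriched subset. Dagla (ENSMUSG00000035735, chromosome 19, 10245265 to 10304877, minus strand) encodes the form that makes most of this lipid in the mouse brain. It had 43.8, 57.6 and 67.8 scaled CPM in the beta-enriched libraries, 36.3, 29.5 and 31.6 in the alpha-enriched libraries and 36.7, 46.7 and 46.1 in the delta-enriched libraries. Beta lay above alpha without overlap, and the lowest beta-enriched library fell within the delta-enriched range. The beta level of Dagla was 1.73-fold that of alpha, or 0.79 on the log2 scale (SE 0.17, adjusted p = 0.00146). Against delta neither beta (0.38, 95% interval 0.04 to 0.73, adjusted p = 0.0904) nor alpha (-0.41, 95% interval -0.76 to -0.06, adjusted p = 0.0836) passed.

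Daglb (ENSMUSG00000039206, chromosome 5, 143464584 to 143505942, plus strand) encodes the second lipase, prominent in macrophages and liver of mice. It had 13.7, 16.3 and 19.6 scaled CPM in beta-enriched, 7.18, 10.7 and 10.6 in alpha-enriched and 10.9, 10.9 and 11.3 in delta-enriched libraries. All beta-enriched libraries lay above all others. The beta level of Daglb was 1.74-fold that of alpha (0.80 on the log2 scale, SE 0.24, adjusted p = 0.0170), while beta against delta missed the threshold (0.58, 95% interval 0.08 to 1.08, adjusted p = 0.0726). Alpha and delta differed by -0.22 (95% interval -0.73 to 0.28, adjusted p = 0.559).

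The Daglb values carry a limit of their own. Its exons share 2309 bases with those of Rac1, a small GTPase gene on the opposite strand with 8043 counts over all libraries against 784 for Daglb, and Daglb was the one member whose expected count was not whole in any of the 9 libraries. Rac1 stood at 132 ± 3.06 scaled CPM in beta, 110 ± 10.6 in alpha and 130 ± 8.68 in delta, with 0.26 for beta against alpha (adjusted p = 0.0658). The sources used here do not give whether the counting used the strand, and reads of the shared stretch cannot be told apart without it. The beta against alpha call of Daglb was lost without beta replicate 2 (adjusted p = 0.0550), without beta replicate 3 (adjusted p = 0.108) and without alpha replicate 1 (adjusted p = 0.0918). It was also lost without beta replicate 2 and delta replicate 3 together (adjusted p = 0.0616) and on TPM (adjusted p = 0.210 to 0.255). For Dagla the call was lost on TPM alone (adjusted p = 0.333 and 0.350), out of 20 alternatives.

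Napepld (ENSMUSG00000044968, chromosome 5, 21662901 to 21701396, minus strand) encodes the phospholipase that releases N-acylethanolamines, anandamide among them. It was highest in the alpha-enriched subset, with 22.2, 22.3 and 23.8 scaled CPM in beta-enriched, 33.2, 33.4 and 27.7 in alpha-enriched and 17.8, 15.7 and 25.4 in delta-enriched libraries. The alpha-enriched libraries lay above all others, and beta and delta overlapped. The alpha level of Napepld was 1.60-fold that of delta (0.67 on the log2 scale, SE 0.19, adjusted p = 0.0133). It stood at -0.47 in beta against alpha (95% interval -0.86 to -0.07, adjusted p = 0.0776) and at 0.21 in beta against delta (95% interval -0.19 to 0.61, adjusted p = 0.454).

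The alpha against delta call of Napepld was lost without alpha replicate 1 (adjusted p = 0.0508), without alpha replicate 2 (adjusted p = 0.0501) and on TPM (adjusted p = 0.117 and 0.120). Delta replicate 3, with the acinar markers, was the high delta-enriched library, and without it the difference came to 0.91 (adjusted p = 0.00172). The 9 mesenchymal markers summed to 9 to 10 counts in beta-enriched, 116 to 413 in alpha-enriched and 24 to 71 in delta-enriched libraries. The 8 duct markers summed to 3070 to 4167 counts in beta-enriched, 6894 to 7178 in alpha-enriched and 2959 to 5541 in delta-enriched libraries. Both lists were thus highest where Napepld was. So was the list of 13 alpha cell markers. It summed to 31931 to 47490 counts in beta-enriched, 636930 to 963477 in alpha-enriched and 52328 to 88580 in delta-enriched libraries. The acinar, endothelial, immune, Schwann cell, erythroid and pancreatic polypeptide lists reached their highest sums in delta-enriched libraries. The duct markers Krt19 and Cftr did not pass the filter on low counts. The duct sum therefore rests mainly on the 6 that did, and it does not give the share of duct cells. The part of mesenchymal and duct RNA in the alpha-enriched level, and of acinar RNA in that library's Napepld counts, was not tested.

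**Figure D2:**
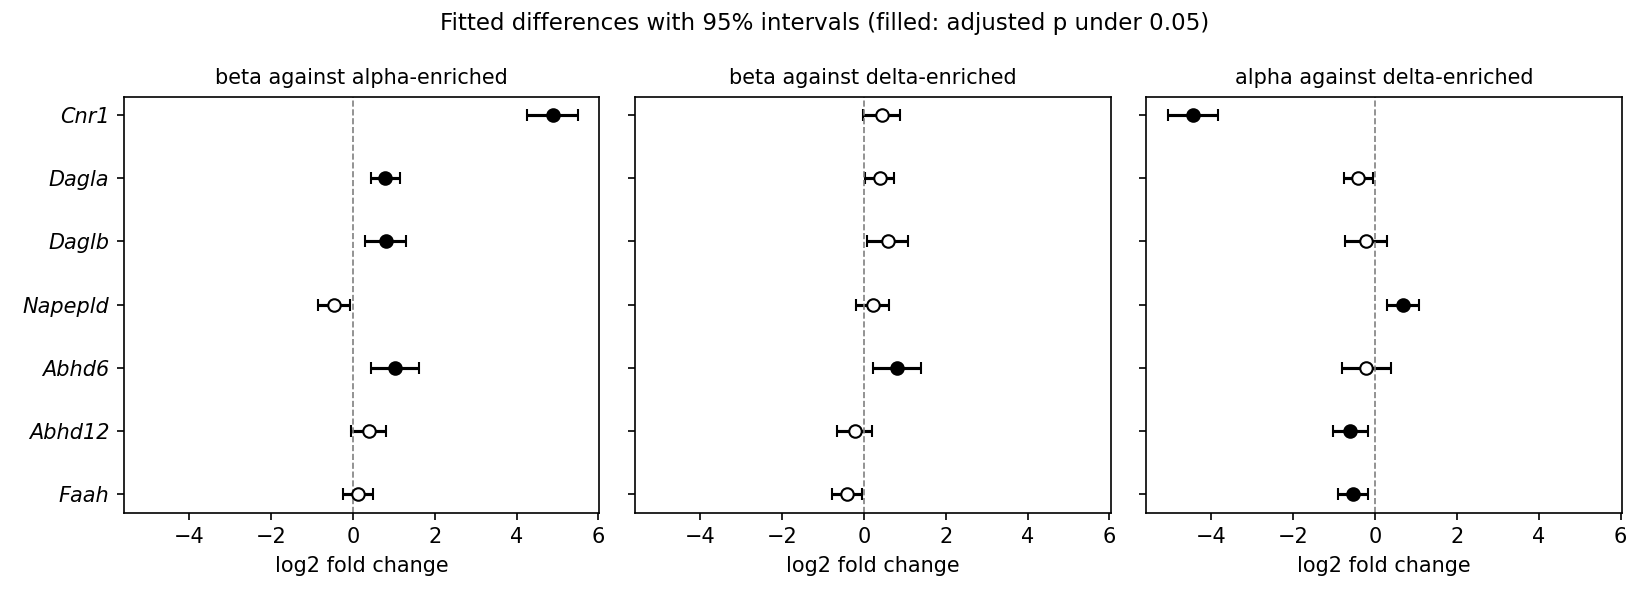
Log2 fold changes of the 7 tested members (points) with 95% intervals (bars) in beta against alpha, beta against delta and alpha against delta, on a common linear axis. Filled points passed at an adjusted p under 0.05, which were 4, 1 and 4 of the 7, and Cnr1 lies at 4.88 and -4.45 in the first and last panel.

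The enzymes that hydrolyse 2-arachidonoylglycerol and other monoacylglycerols were represented by Abhd12 and Abhd6, and hardly by Mgll. Mgll (ENSMUSG00000033174, chromosome 6, 88724412 to 88828360, plus strand) encodes monoacylglycerol lipase, the main such enzyme in mouse brain. It had 1, 0 and 0 counts in beta-enriched, 1, 0 and 1 in alpha-enriched and 1, 0 and 0 in delta-enriched libraries, or 4 of 65815603 counts in all. As a share of all counts it was 0.0429 CPM in beta (95% exact Poisson interval 0.00109 to 0.239), 0.0856 in alpha (0.0104 to 0.309) and 0.0523 in delta (0.00132 to 0.291). No subset differed from another within these intervals.

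Abhd6 (ENSMUSG00000025277, chromosome 14, 8002902 to 8056763, plus strand) encodes a membrane hydrolase whose active site faces the cytosol. It had 16.1, 16.5 and 11.6 scaled CPM in the beta-enriched libraries, 7.06, 5.92 and 8.61 in the alpha-enriched libraries and 11.1, 7.86 and 6.17 in the delta-enriched libraries. Every beta-enriched library lay above every other, with beta replicate 3 only just above delta replicate 1. The beta level of Abhd6 was 2.04-fold that of alpha (1.03 on the log2 scale, SE 0.28, adjusted p = 0.00997) and 1.76-fold that of delta (0.81, SE 0.28, adjusted p = 0.0336), the 1 member past the test in that comparison. Alpha and delta differed by -0.22 (95% interval -0.82 to 0.38, adjusted p = 0.638), and by 0.04 without delta replicate 1.

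These Abhd6 calls rested on few counts, 47 to 125 per library, and were lost in several settings. Beta against alpha missed the threshold without beta replicate 1 (adjusted p = 0.0549), beta replicate 2 (adjusted p = 0.0608) or alpha replicate 2 (adjusted p = 0.0559), and beta against delta missed it without beta replicate 1 (adjusted p = 0.127), beta replicate 2 (adjusted p = 0.140), delta replicate 2 (adjusted p = 0.0683) or delta replicate 3 (adjusted p = 0.118). Without beta replicate 2 and delta replicate 3, the libraries that stood apart, it was 0.93 against alpha (adjusted p = 0.0487) and 0.53 against delta (adjusted p = 0.300). On TPM neither call held (adjusted p = 0.109 to 0.161).

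Abhd12 (ENSMUSG00000032046, chromosome 2, 150832493 to 150904741, minus strand) encodes a hydrolase that also cleaves lysophosphatidylserine. It had 20.8, 24.5 and 18.0 scaled CPM in beta-enriched, 15.3, 20.0 and 13.1 in alpha-enriched and 29.0, 23.0 and 21.8 in delta-enriched libraries. Alpha lay below delta without overlap, and beta overlapped with both. Abhd12 was lower in alpha than in delta (-0.61 on the log2 scale, SE 0.20, adjusted p = 0.0380). The differences of beta from alpha (0.38, 95% interval -0.05 to 0.82, adjusted p = 0.198) and from delta (-0.22, 95% interval -0.65 to 0.21, adjusted p = 0.454) did not pass. The alpha against delta call was lost without beta replicate 1 (adjusted p = 0.0563), alpha replicate 1 (adjusted p = 0.130), alpha replicate 3 (adjusted p = 0.165) or delta replicate 1 (adjusted p = 0.107), with only the 2 subsets in the fit (adjusted p = 0.0646) and on TPM (adjusted p = 0.495 and 0.500).

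In TPM, where the 3 hydrolase genes can be set beside each other, Abhd12 stood above Abhd6 in each of the 9 libraries. Abhd6 held 36.2%, 32.8% and 33.7% of the summed TPM of Abhd6, Abhd12 and Mgll in the beta-enriched libraries. It held 20.3%, 17.2% and 35.9% in the alpha-enriched libraries and 19.2%, 22.8% and 21.4% in the delta-enriched libraries. The beta-enriched shares lay above all delta-enriched ones, while alpha replicate 3 reached the beta-enriched range. Mgll held at most 0.389% in any library. The effective length of Abhd6 was 1303 bases in delta replicate 3 and 1834 to 2033 bases in the others, and that of Abhd12 ran from 1114 to 1738 bases, so these shares also carry the estimated mix of transcripts.

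**Figure D3:**
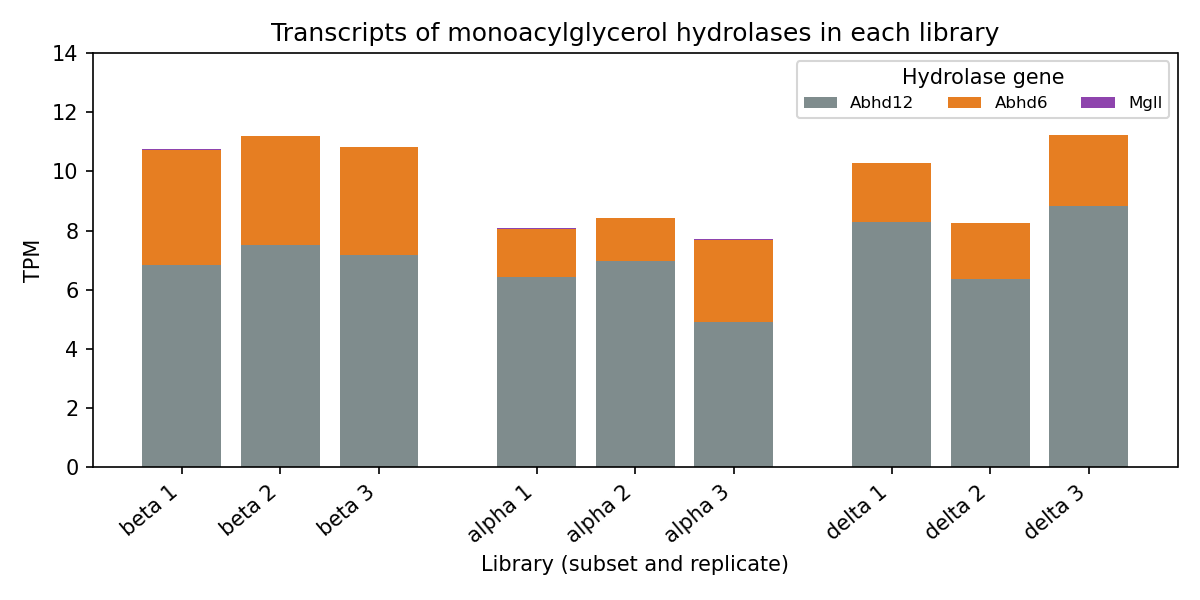
TPM of Abhd12, Abhd6 and Mgll stacked in each of the 9 libraries, by subset and replicate, on a linear axis from 0. Abhd6 takes 32.8% to 36.2% of the bar in beta-enriched, 17.2% to 35.9% in alpha-enriched and 19.2% to 22.8% in delta-enriched libraries, and Mgll is at most 0.389%.

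Faah (ENSMUSG00000034171, chromosome 4, 115967145 to 116017926, minus strand) encodes fatty acid amide hydrolase, which breaks down anandamide. It had 23.5, 25.4 and 28.4 scaled CPM in beta-enriched, 19.4, 24.7 and 26.5 in alpha-enriched and 28.5, 39.2 and 34.9 in delta-enriched libraries. All delta-enriched libraries lay above all others, and beta and alpha overlapped. Faah was lower in alpha than in delta (-0.54 on the log2 scale, SE 0.17, adjusted p = 0.0309). It stood at -0.41 in beta against delta (95% interval -0.78 to -0.04, adjusted p = 0.0877) and at 0.13 in beta against alpha (95% interval -0.24 to 0.50, adjusted p = 0.664).

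The alpha against delta call of Faah was lost without alpha replicate 1 (adjusted p = 0.163), alpha replicate 2 (adjusted p = 0.0667), delta replicate 2 (adjusted p = 0.105) or delta replicate 3 (adjusted p = 0.0666). It was also lost without beta replicate 2 and delta replicate 3 together (adjusted p = 0.0903), with only the 2 subsets in the fit (adjusted p = 0.0587) and on TPM (adjusted p = 0.701 and 0.708). By mean level the anandamide genes lay in unlike order. Napepld was highest in the alpha-enriched subset, at 31.4 ± 3.24 scaled CPM, and Faah in the delta-enriched subset, at 34.2 ± 5.35. Against the beta-enriched subset neither of these passed the test (adjusted p = 0.0776 for Napepld and 0.0877 for Faah).

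By level in TPM, Abhd12 was the highest member in each subset, at 7.17 ± 0.335 in beta, 6.11 ± 1.07 in alpha and 7.83 ± 1.30 in delta. The next were Dagla in beta at 5.47 ± 2.33, Napepld in alpha at 4.62 ± 0.364 and Faah in delta at 5.08 ± 1.91, but neighbours in the order of the 7 tested members overlapped between libraries in each subset, except Daglb above Cnr1 in alpha. For scale, the median of all tested genes was 3.82 TPM in beta, 3.96 in alpha and 3.64 in delta. The 7 tested members therefore lay from well below to somewhat above the middle of the tested genes, with 5.0% of them below Cnr1 in alpha and 71.1% below Abhd12 in delta.

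Of 56 other genes of the pathway, 36 were tested. In beta against alpha 7 were higher, 6 lower and 23 not past the test, in beta against delta 9, 9 and 18, and in alpha against delta 6, 10 and 20. Their median log2 fold changes were 0.01, -0.02 and -0.15. Over all tested genes 26.6%, 30.6% and 24.3% were called in these comparisons, and the counts by list below stand beside the same shares. On log2(TPM + 1) the higher and lower calls were 4 and 3 in beta against alpha, 7 and 5 in beta against delta and 7 and 2 in alpha against delta, and on log2(TPM + 0.1) they were 3 and 3, 6 and 5, and 6 and 2, so that the balance in alpha against delta turned.

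Among 7 other lipid receptors, 4 were tested. Gpr119, the receptor for oleoylethanolamide, which Napepld can supply, averaged 16.4 ± 2.49 scaled CPM in beta, 65.8 ± 11.6 in alpha and 5.55 ± 2.69 in delta. It was lower in beta than in alpha (-2.01, adjusted p = 9.13e-06) and higher in alpha than in delta (3.56, adjusted p = 5.28e-08). Pparg, a nuclear receptor for fatty acid derivatives, was at 16.2 ± 2.43 in beta, 2.13 ± 0.488 in alpha and 2.01 ± 1.78 in delta, higher in beta than in alpha (2.92, adjusted p = 0.000572) and than in delta (2.98, adjusted p = 0.000452). Ppard, a related nuclear receptor, was higher in alpha than in delta (0.76, adjusted p = 0.00983). The capsaicin receptor gene Trpv1, which anandamide can open, had 1 count over all libraries and was not tested.

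All 10 genes of Cnr1 partners were tested, with 4 higher and 2 lower in beta against alpha, 4 and 2 in beta against delta and 3 and 3 in alpha against delta. Grk5, a kinase that turns off activated receptors, averaged 113 ± 4.76 scaled CPM in beta, 34.0 ± 2.65 in alpha and 10.2 ± 2.46 in delta (beta against delta 3.46, adjusted p = 4.58e-11). The inhibitory G protein subunit gene Gnai2 was highest in beta, at 278 ± 18.9, against 127 ± 3.81 in alpha and 174 ± 7.41 in delta (beta against alpha 1.13, adjusted p = 3.51e-08). Its relative Gnai1 went the other way between beta and alpha, at 25.3 ± 4.69 in beta, 162 ± 10.7 in alpha and 16.7 ± 6.57 in delta (beta against alpha -2.68, adjusted p = 2.72e-06). The subset with least Cnr1 was therefore the one with most Gnai1.

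Phospholipase C enzymes supply the diacylglycerol that Dagla and Daglb use, and 6 of their 10 listed genes were tested. In beta against alpha 0 were higher and 1 lower, in beta against delta 1 and 2, and in alpha against delta 1 and 3. Plcb4 averaged 46.2 ± 3.31 scaled CPM in beta, 58.1 ± 4.15 in alpha and 123 ± 9.76 in delta (beta against delta -1.42, adjusted p = 3.78e-08). Plcg1 was at 61.3 ± 4.72, 58.3 ± 6.01 and 24.9 ± 3.10 (beta against delta 1.30, adjusted p = 1.29e-06), and Plcg2 at 6.24 ± 1.06, 5.71 ± 0.599 and 13.5 ± 0.937 (alpha against delta -1.24, adjusted p = 0.00188).

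Of 10 genes of other routes of synthesis, 6 were tested, with 1 higher and 1 lower in beta against alpha, the same counts in beta against delta, and 0 higher and 1 lower in alpha against delta. Gde1, a phosphodiesterase of a second anandamide route, stood at 98.7 ± 13.0 scaled CPM in beta, 50.8 ± 3.25 in alpha and 75.8 ± 3.36 in delta (beta against alpha 0.96, adjusted p = 7.13e-06). Plaat3, a phospholipase and acyltransferase gene, was lower in beta than in alpha (-1.09, adjusted p = 0.000674). Of 11 genes of other breakdown 5 were tested, with 0 higher in any comparison and 1, 2 and 1 lower in beta against alpha, beta against delta and alpha against delta. They were Ddhd1 and Lipe. Ddhd1, a phospholipase gene, was at 45.0 ± 4.49 in beta, 76.3 ± 9.11 in alpha and 127 ± 8.56 in delta (beta against delta -1.49, adjusted p = 4.75e-08). Lipe, the hormone-sensitive lipase gene, was lower in beta against delta only (-1.05, adjusted p = 0.0323). The lower calls thus came from Ddhd1 in each comparison, joined by Lipe in beta against delta. With 5 of 11 genes tested and calls from these genes alone, the counts do not measure endocannabinoid breakdown as such.

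Of 8 carrier genes 5 were tested, with 1 higher and 0 lower in beta against alpha, 1 and 2 in beta against delta and 0 and 2 in alpha against delta. Scp2, which encodes a sterol carrier that binds endocannabinoids, was higher in beta than in delta (0.88, adjusted p = 5.19e-05). Fabp5 and Fabp3, fatty acid carrier genes, were lower in beta than in delta (-2.35, adjusted p = 0.00120, and -1.66, adjusted p = 0.0264) and lower in alpha than in delta (-1.43, adjusted p = 0.0286, and -1.77, adjusted p = 0.0221).

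**Figure D4:**
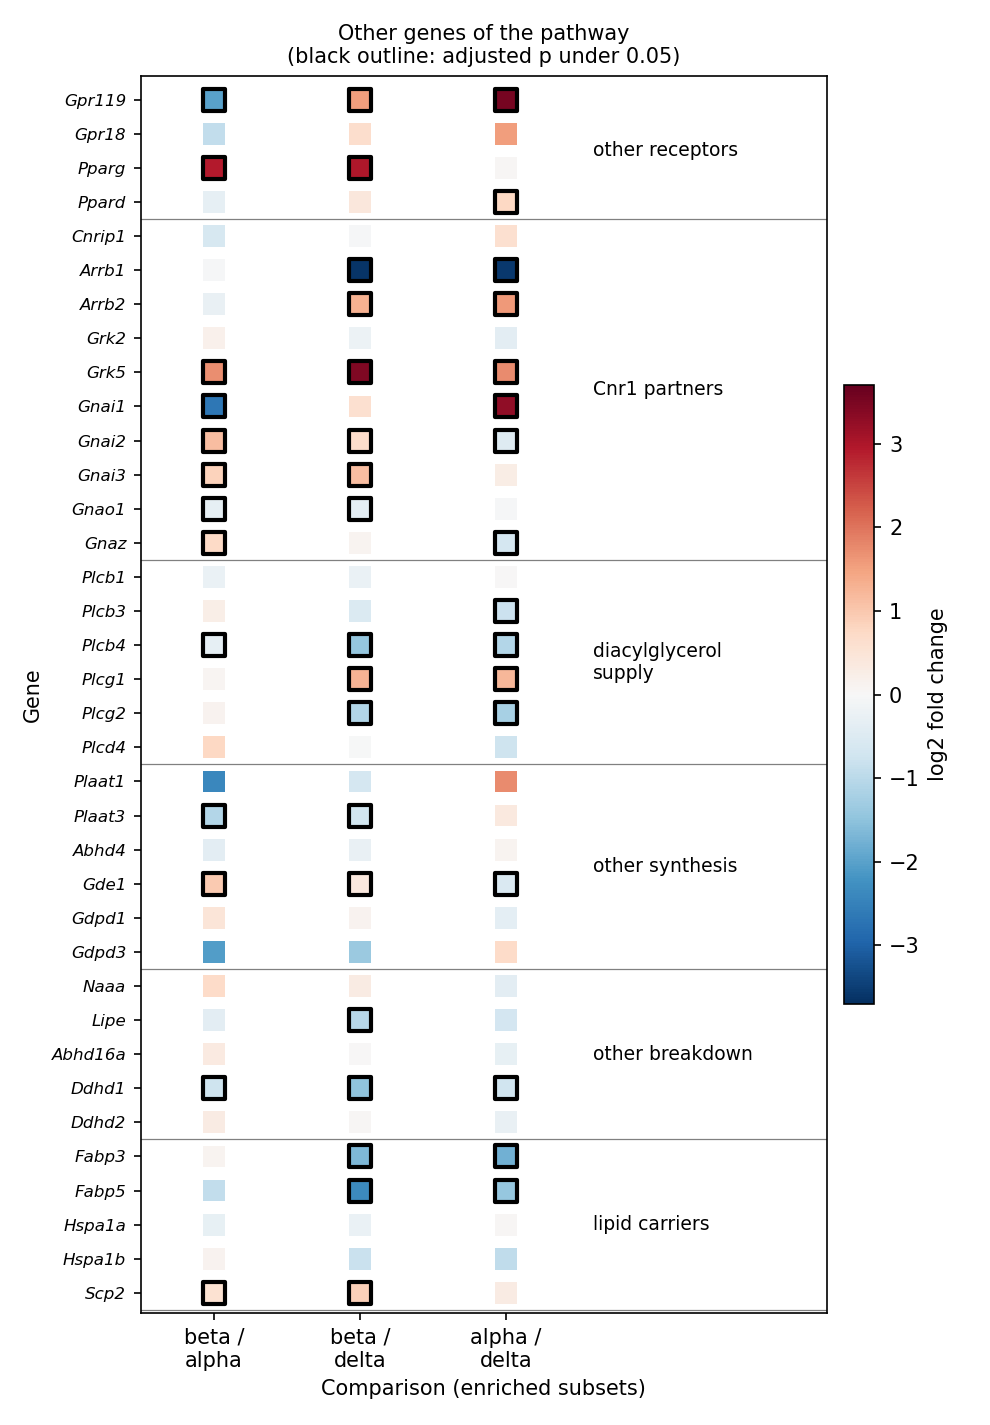
Log2 fold changes (colour, blue below 0 and red above) of the 36 tested other genes of the pathway in the 3 comparisons, grouped by list, with a black outline where the adjusted p was under 0.05. The outlines number 13 in beta against alpha, 18 in beta against delta and 16 in alpha against delta, and Gnai1 and Gpr119 are blue in the first column and red in the last.

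The genes most like Cnr1 over the 9 libraries, by Pearson's r of log2 scaled CPM among 8687 protein-coding genes with a mean of at least 10 CPM, were Cxxc4 (r = 0.993), Mreg (r = 0.992) and Tenm3 (r = 0.991). Mreg averaged 37.6 ± 2.84 scaled CPM in beta, 3.04 ± 1.27 in alpha and 28.6 ± 4.46 in delta, and Tenm3 142 ± 1.55, 13.95 ± 4.38 and 87.6 ± 5.59. Cxxc4, at 239 ± 9.84, 125 ± 11.5 and 212 ± 9.61, had the same order with a smaller fall in alpha, since r does not measure size. For Abhd6 the most alike were Tspyl2 (r = 0.977), Sec62 (r = 0.971) and Dnaja3 (r = 0.971). Dnaja3 averaged 50.9 ± 6.19 scaled CPM in beta, 37.1 ± 2.81 in alpha and 36.6 ± 3.91 in delta, Sec62 210.4 ± 11.8, 165.7 ± 6.26 and 176.3 ± 16.8, and Tspyl2 106.5 ± 9.64, 75.7 ± 2.98 and 85.1 ± 9.62. All 3 were highest in beta, as Abhd6 was. The 9 libraries fall into 3 subsets, so these correlations are a description and no test.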

How the data were processed

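The build GRCm38.p6 and the tools DESeq2 1.22.1, R 3.5.1, RSEM and STAR 2.5.2b are listed, with no order, in the submitters' processing notes. Each library has 1 deposited RSEM gene table of 55536 genes, from which the authors' expected counts (not scaled for depth) and TPM (scaled by length and to a fixed total per library) were taken. The deposited normalised table of all libraries was not used. All identifiers matched GENCODE M21 (GRCm38), which gave symbols and coordinates.

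Expected counts were rounded. edgeR 4.0.16 in R 4.3.3 kept 15896 genes by filterByExpr, applied TMM factors and fitted a robust quasi-likelihood model with 1 coefficient per subset to all 9 libraries. Differences were tested 2-sided, with Benjamini-Hochberg adjustment over all tested genes, and every adjusted p and SE is from this fit unless another is named. The fit had 6 residual degrees of freedom and a common coefficient of biological variation of 0.212. On simulated counts for beta against alpha (15514 genes), 50 of 100 genes changed 2-fold and 93 of 100 changed 4-fold were recovered, with 5 false calls. The simulation gave every gene the common coefficient of variation and changed only these genes, in beta alone. Real genes differ in spread and many more were called, so these counts are no error rate of the real comparison. Intervals are 95%. TPM were tested with limma 3.58.1 on log2(TPM + 1) and log2(TPM + 0.1), without TMM factors. The fixed total of TPM includes the ribosomal and 7S RNA genes, which took 42.1% of the counts in beta replicate 2.

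Members and lists were chosen with earlier results of these data known. The naming rule took all 10 members, up to 3 called genes per pathway list with the smallest adjusted p, and the 3 protein-coding genes most correlated with each member called in at least 2 comparisons. Symbols absent from GENCODE M21 were matched through RefSeq synonyms.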

Additional observations from a re-analysis of the deposited data

How the results depend on the processing

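Cnr1 kept its direction and its calls in beta against alpha and alpha against delta under all 20 alternatives (log2 fold changes 1.63 to 5.21 and -4.77 to -1.23), and missed the threshold in beta against delta under all 20. No called member changed direction in any alternative. The one sign change was Abhd6 in alpha against delta, not called in any of them, at -0.397 to 0.042 with a library left out (0.042 without delta replicate 1). Counts of members past the test moved from 4, 1 and 4 in beta against alpha, beta against delta and alpha against delta to 1, 0 and 1 on TPM with either pseudocount, 1 or 0.1. They ranged over 2 to 5, 0 to 2 and 1 to 4 when a library was left out. Beta against delta fell to 0 with beta replicate 2 and delta replicate 3 both left out, and alpha against delta to 2 with only the 2 subsets in the fit. All genes called numbered 4231, 4869 and 3868, against 1765, 2446 and 1807 on log2(TPM + 1) and 1819, 2480 and 1782 on log2(TPM + 0.1), and 3210 to 4997, 3909 to 5260 and 3090 to 4334 with a library left out. Pathway genes called numbered 13, 18 and 16, against 7 and 9 on log2(TPM + 1) in beta against alpha and alpha against delta, and 6, 11 and 8 on log2(TPM + 0.1), and 11 to 14, 15 to 19 and 14 to 20 with a library left out. The cause of these moves was not tested.

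With upper-quartile factors 1959 genes were higher and 2348 lower in beta against alpha, against 2345 and 1886 with TMM, and Napepld passed as lower (-0.55, adjusted p = 0.0347). Napepld also passed there without delta replicate 2 (adjusted p = 0.0459), without delta replicate 3 (adjusted p = 0.0381) and with only the 2 subsets in the fit (adjusted p = 0.00888). Dagla passed in beta against delta without beta replicate 1 (adjusted p = 0.0245) and in alpha against delta without delta replicate 1 (adjusted p = 0.0296), and Faah passed in beta against delta without delta replicate 1 (adjusted p = 0.0280).

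Libraries with the same replicate number deviated together weakly, at r = 0.001 to 0.112 over 9 pairs, against -0.102 to 0.021 over 18 pairs with other numbers, and each of 9 libraries correlated best with its own number. The numbers were left out of the main fit because the labels name no batch, so its p-values take no account of any pairing. Weak correlations cannot show that libraries with the same number were unpaired, and the question stays undecided here. With the replicate block 4625, 5241 and 4294 genes were called, and the members called remained 4, 1 and 4 in number. Depth limits Cnr2, Gpr55 and Mgll most, since they had at most 12 counts per subset.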
